A study of Mus musculus with 2 samples.

Results

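The 6 interferon-stimulated genes Ifit1, Ifit2, Ifit3, Ifit3b, Rsad2 and Cmpk2 were followed across single cells of mouse tumour-draining inguinal lymph nodes. They were chosen by name, with earlier results of these libraries known, and all 6 were found among the 25815 genes with a count in either library. One library came from 13 pooled nodes of wild-type (WT) mice. The other came from 9 pooled nodes of mice whose genotype is given as an ATG5 knockout in lymphatic endothelial cells (LECs, the cells lining lymphatic vessels and node sinuses), here called Atg5 LEC-KO. Each set of nodes was sorted into viable endothelium, positive for CD31 and negative for CD45 and Ter119, and viable leukocytes, positive for CD45 and negative for CD31 and Ter119, and both sorts went into 1 library. Animals within a pool cannot be told apart. The labels give no Cre driver, no deleted exon, no age, no treatment and no tumour type. With 1 library per genotype, no difference between the genotypes has a replicate check, and no test was made. Intervals in brackets are exact 95% intervals that cover counting error only.

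The 6 genes belong to the antiviral arm of the interferon response. Interferon receptors signal through the kinases JAK1 and TYK2 to transcription factors that bind a short DNA element, the interferon-stimulated response element (ISRE). Ifit1, Ifit2 and Ifit3 encode cytosolic proteins built of tetratricopeptide repeats. IFIT1 binds viral RNA whose cap lacks ribose methylation, IFIT2 also binds RNA, and IFIT3 partners with other family members. Ifit3b is a close copy of Ifit3 in the mouse. Rsad2 encodes viperin, a radical SAM enzyme that turns CTP into a chain-terminating nucleotide. Cmpk2 encodes a mitochondrial nucleoside monophosphate kinase and lies next to Rsad2. In the lymph node, LECs line the subcapsular sinus (its ceiling and floor) and the medullary and paracortical sinuses, and blood endothelial cells (BECs) line capillaries, arteries, veins and the high endothelial venules where lymphocytes enter.

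In GENCODE M21 (GRCm38, also called mm10), all 6 are protein-coding genes. Rsad2 (ENSMUSG00000020641.16) spans chromosome 12 from 26442746 to 26456452 on the minus strand, and Cmpk2 (ENSMUSG00000020638.8) spans 26469204 to 26479837 on the plus strand, so that both start from a shared gap of 12751 bp. The Ifit genes lie on the plus strand of chromosome 19 in the order Ifit2 (ENSMUSG00000045932.12, 34550694 to 34576419), Ifit3 (ENSMUSG00000074896.3, 34583531 to 34588731), Ifit3b (ENSMUSG00000062488.9, 34607970 to 34613401) and Ifit1 (ENSMUSG00000034459.8, 34640871 to 34650009). Promoters from RefSeq (GRCm38.p6, 250 bases before to 50 after each start) were matched by symbol for 6 of 6 genes and searched on both strands for the core of an ISRE, the letters GAAA repeated after 2 free letters, which read TTTC, 2 free letters and TTTC on the opposite strand. The promoters of 4 genes held a match and are shown, with the matches in capitals. Ifit1 is read from chr19:34640755-34640888, Ifit3 from chr19:34583343-34583528, Ifit3b from chr19:34607739-34607956, all on the plus strand, and Rsad2 from chr12:26456453-26456602 on the minus strand, each running up to the last base before the start.
Ifit1: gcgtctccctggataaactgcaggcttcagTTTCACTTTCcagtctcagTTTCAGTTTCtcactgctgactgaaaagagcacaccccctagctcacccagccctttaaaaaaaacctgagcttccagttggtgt
Ifit3: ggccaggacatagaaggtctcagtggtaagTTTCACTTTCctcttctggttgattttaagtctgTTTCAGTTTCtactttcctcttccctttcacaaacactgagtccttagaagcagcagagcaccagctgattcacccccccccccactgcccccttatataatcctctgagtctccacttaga
Ifit3b: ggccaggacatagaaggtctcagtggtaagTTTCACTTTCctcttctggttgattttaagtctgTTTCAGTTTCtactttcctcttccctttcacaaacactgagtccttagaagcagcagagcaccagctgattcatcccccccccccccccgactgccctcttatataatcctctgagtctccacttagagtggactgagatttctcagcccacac
Rsad2: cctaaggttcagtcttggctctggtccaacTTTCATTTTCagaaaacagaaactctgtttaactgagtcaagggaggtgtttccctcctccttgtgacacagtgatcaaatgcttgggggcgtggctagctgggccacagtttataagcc

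Ifit1, Ifit3 and Ifit3b held 2 matches each, and Rsad2 held 1. In Ifit1 the matches began 104 and 85 bases before the start. In Ifit3 they began 156 and 122 bases before it, in Ifit3b 188 and 154 bases, and in Rsad2 120 bases. Of all 32851 promoters in the table, 3.44% held at least 1 match and 0.225% held at least 2. Neither of the 2 promoters listed for Ifit2, nor that of Cmpk2, held these letters in its window. The printed Ifit3 and Ifit3b stretches were identical over their first 137 bases. The longest transcripts of both genes were identical at 81.2% of aligned columns, and 47.0% of the 60-base windows of Ifit3 were found unchanged in Ifit3b. In the last 400 bases, where most reads of a 3' library fall, 16.7% of such windows were shared. Counts of Ifit3 and Ifit3b are therefore uncertain against each other, and leaving both out of the sum kept all 6 library ratios within their counting intervals.

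The libraries were close in depth, at 23649554 (WT) and 23089918 (Atg5 LEC-KO) UMIs, unique molecular identifiers that each stand for 1 captured molecule. After filters, 3857 and 4157 cells remained, with medians of 3509 and 3344 UMIs per cell. Among these cells 14 barcodes were shared by both libraries. Cells were clustered without the 6 genes and the other interferon genes, and clusters were named by resemblance to marker lists: each class name below means "like". All 3 LEC classes carried their markers (7 of 8 ceiling, 10 of 10 floor and 8 of 12 medullary or paracortical markers over 2-fold above the mean cluster). Both libraries mixed male and female cells, and of LECs with a sex call 71.4% (WT) and 50.3% (Atg5 LEC-KO) were male. LECs of the WT library had a median of 6.81% mitochondrial UMIs, against 10.5% in the other. Atg5 was counted at 41.1 CPM (36.1-46.6) in WT LECs and at 43.8 CPM (34.2-55.3) in Atg5 LEC-KO LECs. CPM are UMIs of a class scaled to a total of 1000000, without mitochondrially encoded genes. Since 3' counts can lie outside a deleted exon, this level does not check the label.

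Over all cells, the 6 genes summed to 3579 UMIs (211 CPM) in WT cells and to 4545 UMIs (282 CPM) in Atg5 LEC-KO cells. At least 1 UMI was found in 995 of 3857 cells (25.8%) and in 1052 of 4157 cells (25.3%). The UMIs were concentrated: the top 1% of cells held 30.6% (WT) and 40.9% (Atg5 LEC-KO) of the sum, and 50% of the sum lay in 112 and 75 cells. Rsad2 and Ifit3b had the largest shares in the top 1% of cells, at 56.1% and 60.8% of their UMIs for WT, and 63.7% and 65.4% for Atg5 LEC-KO. This share also rises as a gene is found in fewer cells. Ifit3b had 171 UMIs in only 106 WT cells, of which the top 1% took 39, so its share does not rank it against more abundant genes. In barcodes with fewer than 100 UMIs, which hold free RNA and debris, the sum stood at 104 CPM (WT) and 116 CPM (Atg5 LEC-KO). In barcodes with 100 to 499 UMIs it stood at 78.2 and 128 CPM.

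In the WT library, BECs carried the highest sum among the main classes, at 430 CPM (407-454). T cells followed at 214 CPM (198-231), LECs at 171 CPM (161-182) and B cells at 145 CPM (133-158). The intervals of LECs and B cells touched neither those of T cells nor each other, and all 4 stood above the level of low-UMI barcodes. The order of LECs over B cells did not hold without the 5 top cells of each class, where LECs stood at 113 CPM and B cells at 118 CPM. Within BECs the capillary class was highest, at 607 CPM (566-650), followed by arterial BECs at 442 CPM, high endothelial venules at 354 CPM and tip cells, the sprouting front of growing vessels, at 263 CPM. Without the top cell of each class these levels were, in the same order, 563, 395, 182 and 174 CPM. High endothelial venules and tip cells then lay close together. The 42 venous BECs held 13 UMIs. Among WT LECs the medullary or paracortical class stood at 336 CPM, the floor at 168 CPM and the ceiling at 144 CPM. This order rested on 1 cell, which held 164 of the 230 UMIs of the medullary or paracortical class: without the top cell of each class the levels were 99.3, 123 and 122 CPM.

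In the Atg5 LEC-KO library the order differed. LECs carried 834 CPM (790-879), BECs 445 CPM (420-470), T cells 210 CPM (198-222) and B cells 90.9 CPM (82.0-101). B cells stood here below the level of the low-UMI barcodes. The medullary or paracortical LECs reached 1056 CPM (987-1129), the highest of the classes plotted. Ceiling LECs stood at 646 CPM (588-709), and the 13 floor LECs held 23 UMIs.

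**Figure D1:**
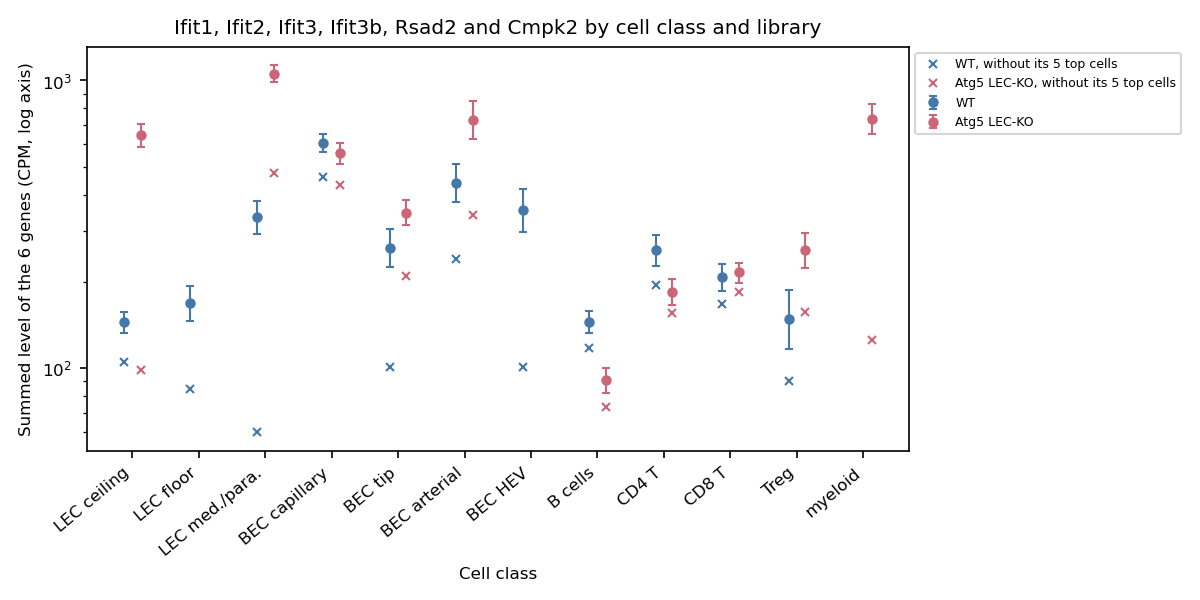
Summed level of the 6 genes (CPM, log axis) by cell class, in the WT and the Atg5 LEC-KO library. Circles give the class sum with its exact 95% Poisson interval, crosses the level without the UMIs of the 5 cells with the most in that class and library, and classes with under 50 cells in a library have no point. Ceiling LECs of both libraries lie close together without those UMIs (105 CPM for WT, 98.4 CPM for Atg5 LEC-KO), whereas medullary or paracortical LECs stay apart.

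The sum in LECs was 4.86 times as high in the Atg5 LEC-KO library as in the WT library (4.48-5.28). Rsad2 differed most, from 81 UMIs in 728 WT cells (13.8 CPM) to 360 UMIs in 219 Atg5 LEC-KO cells (222 CPM), a ratio of 16.2 (12.7-20.8). One WT cell held 55 of the 81 UMIs and 1 Atg5 LEC-KO cell 82 of the 360, and without the top cell of each library the Rsad2 ratio was 38.95 (26.02-60.7). Ifit3 went from 57 to 101 UMIs (9.68 and 62.3 CPM, 6.44-fold) and its copy Ifit3b from 22 to 39 UMIs (3.74 and 24.1 CPM, 6.44-fold). Cmpk2 went from 189 to 265 UMIs, or from 32.1 to 164 CPM (5.10-fold). Ifit2 went from 283 to 280 UMIs in fewer cells, or from 48.1 to 173 CPM (3.596-fold), and Ifit1 from 378 to 306 UMIs, or from 64.2 to 189 CPM (2.94-fold). All 6 genes were thus past 2-fold, and the counting interval of each ratio lay above 1. Of 11736 genes with at least 20 UMIs in LECs over both libraries, 4.47% were at least 2-fold higher in the Atg5 LEC-KO library and 5.86% at least 2-fold lower. The genes had been chosen with such results known, so their count adds nothing to that share. The mix of LEC niches differed too: the medullary or paracortical class made up 79 of 728 WT and 102 of 219 Atg5 LEC-KO cells, the floor 154 and 13, and the ceiling 495 and 104. The ceiling and the medullary or paracortical ratios, averaged on the log2 scale with equal weight, gave 3.75 in place of 4.86. Rsad2 alone stood at 3.24 (2.42-4.38) in medullary or paracortical LECs and at 43.6 (26.2-77.1) in ceiling LECs, but single cells weighed on both. In WT medullary or paracortical LECs 1 cell held 55 of its 59 UMIs. Among Atg5 LEC-KO ceiling LECs 2 cells held 82 and 40 of 129. The mitochondrial share and the mix of sexes also differed between the LECs of the 2 libraries, and their part in the ratio was not tested. Among male cells alone the ratio was 5.34, among female cells alone 2.67 and among cells with no sex call 17.0. The last value includes the top Atg5 LEC-KO cell, which held 228 of the 1351 UMIs and had no sex call.

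In BECs the sum was almost level, at 1304 WT and 1228 Atg5 LEC-KO UMIs, a ratio of 1.03 (0.955-1.12). The 6 genes ranged from 0.858 for Cmpk2 to 1.22 for Ifit2, and every interval held 1. None of the 6 passed 2-fold, against 2.26% of 11222 genes higher and 3% lower. Capillary BECs had a ratio of 0.921 (0.824-1.03), with Rsad2 at 229 and 220 CPM, while Cmpk2 was lower (82.5 and 54.8 CPM, 0.664, 0.469-0.930). None of the 6 passed 2-fold there, against 3.22% of 9227 genes higher and 2.99% lower. Tip cells (1.32, 1.106-1.59) and arterial BECs (1.65, 1.34-2.05) were higher in the Atg5 LEC-KO library, with counting intervals above 1. Without the 5 top cells of each library these ratios were 2.03 (1.55-2.70) and 1.60 (1.18-2.17), since 1 WT tip cell held 61 of 176 UMIs. High endothelial venules held 133 UMIs in 69 WT cells and 78 UMIs in 46 Atg5 LEC-KO cells, and venous BECs 28 UMIs in 20 Atg5 LEC-KO cells.

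In B cells the sum was lower in the Atg5 LEC-KO library, at 0.626 of the WT level (0.546-0.717). Ifit1 differed most, from 63 UMIs in 1355 cells to 25 in 1568 cells (18.0 and 6.06 CPM, ratio 0.337, 0.203-0.544), followed by Ifit3 (38.2 and 18.7 CPM, 0.488). Cmpk2 was level at 29.97 and 30.07 CPM. Thus 2 of the 6 genes were at least 2-fold lower, against 2.25% of 10311 genes. The B cell ratio was 0.255 among male cells and 0.438 among female cells, but 0.969 (0.782-1.20) among the 616 and 643 cells with no sex call, so that the pooled value rests on the cells with a call. T cells were level at 0.981 (0.893-1.08), with none of the 6 genes past 2-fold, against 1.78% of 10763 genes higher and 1.71% lower. CD4 T cells stood at 0.713 (0.607-0.839), CD8 T cells at 1.04 (0.910-1.19) and regulatory T cells at 1.73 (1.32-2.29), and without 5 cells of each library they stood at 0.792, 1.10 and 1.71.

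Few cells carried the LEC difference. LECs with at least 20 UMIs of the 6 genes numbered 4 of 728 WT cells (0.549%, 0.150-1.40) and 14 of 219 Atg5 LEC-KO cells (6.39%, 3.54-10.5). Those 4 cells held 33.3% of the WT sum, and the 14 cells held 76.4% of the other. In the Atg5 LEC-KO library 5 of 219 LECs held at least 50% of the LEC sum, against 19 of 728 in the WT library. These are similar shares of the cells, so this measure does not set the libraries apart. The count of 20 is a point on a range and not a border between types: 14 WT and 9 Atg5 LEC-KO LECs held 10 to 19 UMIs, and 1 and 4 cells held 20 to 29. At a lower bound of 5 UMIs the shares were 5.77% (4.19-7.72) and 15.5% (10.998-21.01). Median depth was 8238 UMIs in WT LECs and 7856 in the others.

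**Figure D2:**
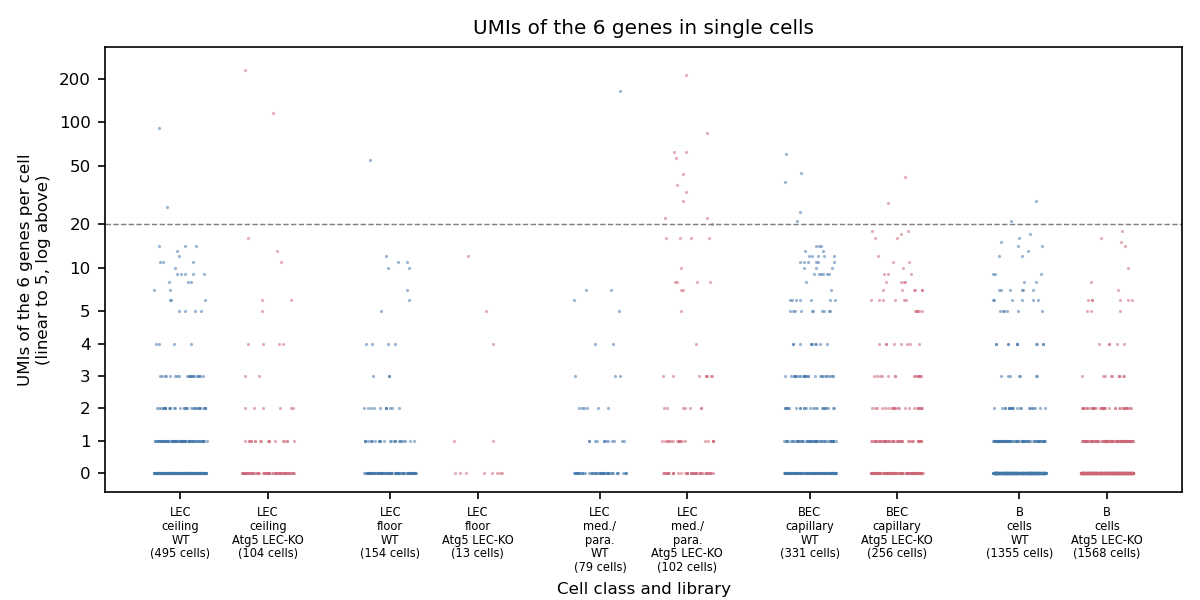
UMIs of the 6 genes in each cell (linear to 5, log above), for 3 LEC classes, capillary BECs and B cells in the WT and Atg5 LEC-KO libraries, with a dashed line at 20 UMIs. Each point is a cell; 2 ceiling cells of the Atg5 LEC-KO library, with 228 and 116 UMIs, stand apart from the rest of their class, whereas 12 of its 102 medullary or paracortical cells lie at or above the line.

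Among ceiling LECs, 2 of the 104 Atg5 LEC-KO cells held 75.9% of the sum of 453 UMIs, with 228 and 116 UMIs. In the 495 WT ceiling cells, the 2 cells over the bound held 91 and 26 of 581 UMIs (20.1%). The ceiling ratio of 4.47 (3.95-5.07) fell to 2.66 (2.26-3.12) without the top cell of each library, to 1.38 (1.107-1.70) without 2 and to 0.987 (0.753-1.28) without 5. Rsad2 showed this most: its 17 UMIs in 8 WT ceiling cells became 129 UMIs in 5 Atg5 LEC-KO ceiling cells, with 82 of the 129 in 1 cell. All 6 genes were past 2-fold in ceiling LECs, against 5.27% of 10688 genes higher and 5.3% lower, and this ratio rested on a handful of cells. Leaving out equal numbers removes a larger share of the 104 Atg5 LEC-KO than of the 495 WT ceiling cells, which by itself tends to lower the ratio.

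Medullary or paracortical LECs went the other way. The WT sum of 230 UMIs in 79 cells lay mainly in 1 cell with 164 UMIs (71.3%). Without the top cell of each library the ratio rose from 3.15 (2.72-3.65) to 8.17 (6.34-10.7), and without 5 it stood at 7.64 (5.53-10.8). At least 20 UMIs were found in 12 of 102 Atg5 LEC-KO cells (11.8%, 6.23-19.6) and in 1 of 79 WT cells (1.27%, 0.0320-6.85), and at least 5 UMIs in 24 cells (23.5%, 15.7-33.0) and 5 cells (6.33%, 2.09-14.2). All 6 genes were past 2-fold, from 2.47 for Ifit2 to 3.90 for Ifit3, against 3.71% of 8593 genes higher and 4.99% lower. Over all LECs the ratio was 3.63 (3.25-4.05) without 5 cells of each library and 2.60 (2.28-2.95) without 10. These removals took a larger share of the 219 Atg5 LEC-KO than of the 728 WT LECs. In BECs, B cells and T cells, leaving out 10 cells gave 1.08, 0.661 and 1.03.

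**Figure D3:**
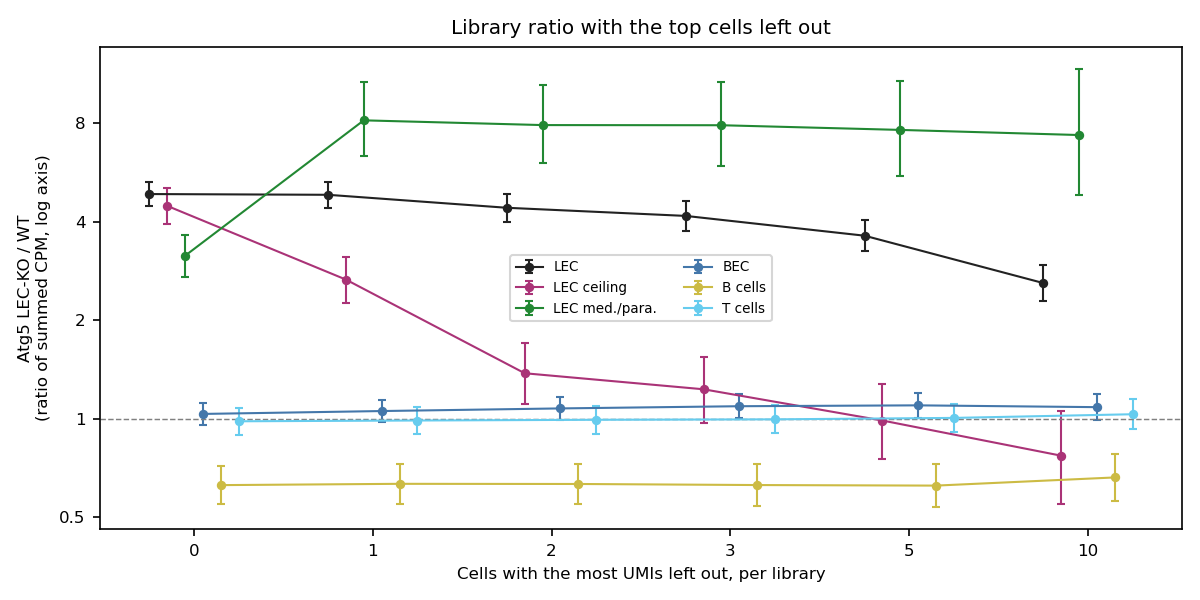
Ratio of the summed CPM, Atg5 LEC-KO over WT (log axis), as the cells with the most UMIs of the 6 genes are left out of each library, with exact 95% intervals. The ceiling LECs drop from 4.47 to 0.770 and the medullary or paracortical LECs go from 3.15 to 7.37 when 10 cells are left out, while BECs, T cells and B cells keep to between 0.624 and 1.10.

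The cells with the most UMIs did not all carry the markers of the niche they were placed in. The WT cell with 164 UMIs was placed with medullary or paracortical LECs but held 32 UMIs of Ackr4, a chemokine-scavenging receptor of ceiling LECs, and 0 of Lyve1, a hyaluronan receptor of medullary LECs. The Atg5 LEC-KO cell with 228 UMIs was placed with ceiling LECs but held 57 UMIs of Lyve1 beside 10 of Ackr4. The other high Atg5 LEC-KO ceiling cell, with 116 UMIs, held 0 of both. Both markers can occur in the same cell: a WT ceiling LEC with 14 UMIs of the 6 genes held 39 of Ackr4 and 25 of Lyve1. These 2 markers therefore do not settle the niche of a single cell. When interferon genes were allowed to guide the clustering, the ceiling ratio was 1.09 (0.883-1.34) and the medullary or paracortical ratio 4.19 (3.64-4.85), while the ratio over all LECs kept within its counting interval.

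The 14 high LECs of the Atg5 LEC-KO library were LECs by their markers. The LEC marker list summed to 16544 CPM in them, with 10 of 10 genes counted, against 12213 CPM in the other LECs. The pan-T, CD4, NK, neutrophil and erythroid lists were at 0 in all 14 cells. The B cell list had 1 UMI, the macrophage list 2 UMIs in 2 cells and the CD8 list 5 UMIs in 1 cell, while the BEC list stood at 2489 CPM, against 2371 CPM in the other LECs. Their cells held 2950 to 15522 UMIs (median 9008, against 7723 in the other LECs), and their median mitochondrial share was 9.06% against 10.5%. In the top cell, the 228 UMIs came from 386 reads, 1.69 reads per UMI against 1.89 for all its genes, and the uncorrected count was 237 molecules. Of the 14 cells, 8 were called male and 4 female.

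The share of cells with a UMI moves with depth, so each cell was thinned to 2000 of its UMIs. On that footing 13.3% (10.9-15.997) of 715 WT LECs and 23.2% (17.7-29.5) of 211 Atg5 LEC-KO LECs were positive, with 13 and 8 shallower cells left out. Before thinning the shares were 34.8% and 47.0%. Ceiling LECs were closer, at 12.6% (9.74-15.8) and 15.2% (8.74-23.8), and their intervals overlapped. Medullary or paracortical LECs were at 14.3% (7.35-24.1) and 32.3% (23.3-42.5), with a small overlap. Positive LECs carried 1.84 (WT) and 5.86 (Atg5 LEC-KO) UMIs each at this depth, so that UMIs per positive cell differed by more than the share did.

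Among the 6 genes, the thinned share of LECs with Rsad2 went from 0.839% (0.309-1.82) to 8.06% (4.76-12.6), and with Cmpk2 from 2.94% (1.83-4.45) to 11.4% (7.43-16.5). For Ifit1 it went from 6.71% (4.99-8.80) to 11.8% (7.82-17.0), with overlapping intervals. For Ifit2 it went from 4.76% (3.32-6.58) to 11.8% (7.82-17.0), without overlap. Ifit3 (1.96% and 5.21%) and Ifit3b (0.559% and 2.84%) were found in few LECs of either library, and their intervals overlapped.

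BECs had the widest spread of these genes over cells. After thinning, 31.5% (27.7-35.5) of WT and 35.7% (31.4-40.3) of Atg5 LEC-KO BECs were positive, and 41.2% and 40.1% of capillary BECs. The 565 WT and 470 Atg5 LEC-KO cells deep enough left out 76 and 50 others, and the unthinned shares were 44.1% and 48.5%. Tip cells were at 18.9% (11.4-28.5) and 31.2% (23.7-39.5). T cells were at 20.2% and 19.9%, and B cells at 10.03% and 9.02%, with UMIs per positive B cell of 2.68 and 1.94. At least 5 UMIs, unthinned, were found in 33 of 1355 WT B cells (2.44%, 1.68-3.40) and in 16 of 1568 Atg5 LEC-KO B cells (1.02%, 0.584-1.65). The share of positive B cells overlapped within counting error, and that of B cells with at least 5 UMIs did not.

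**Figure D4:**
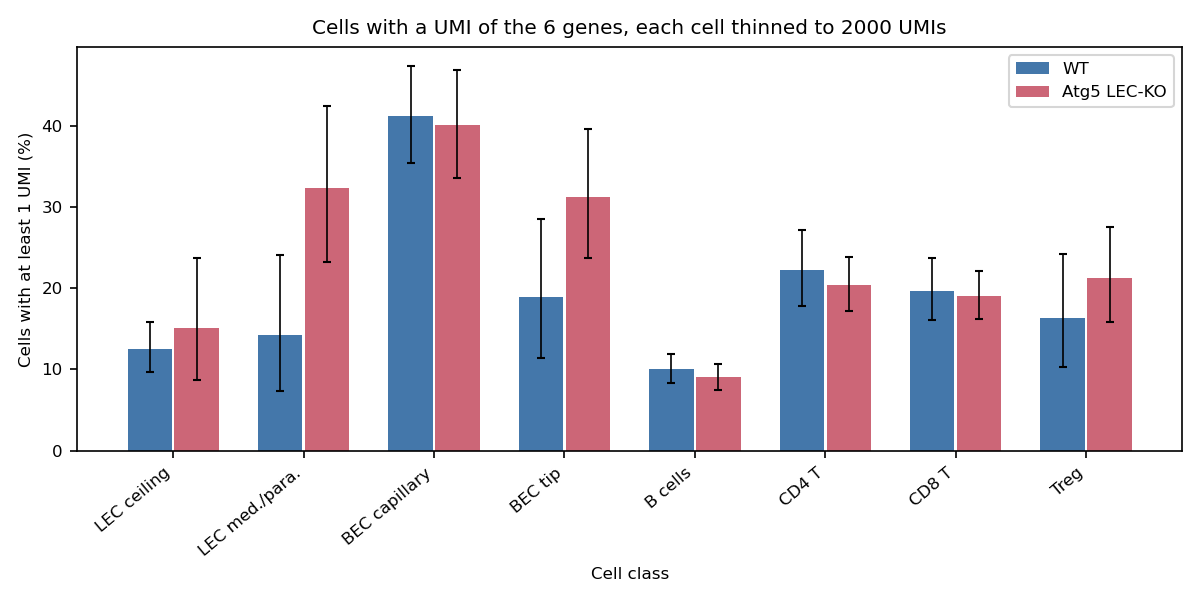
Share of cells with at least 1 UMI of the 6 genes (%) after each cell was thinned to 2000 UMIs, in 8 classes of the WT and Atg5 LEC-KO libraries, with exact 95% Clopper-Pearson intervals. Medullary or paracortical LECs differ most (14.3% and 32.3%), and capillary BECs, B cells, CD4 and CD8 T cells lie close together.

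The make-up of the sum differed between cell classes. Each molecule is counted once at its 3' end, so shares of UMIs were compared without scaling by length. Rsad2 gave the largest share in BECs as a whole, at 35.8% (33.2-38.5) for WT and 33.6% (30.9-36.3) for Atg5 LEC-KO, although Ifit3 led in high endothelial venules with 30 of 133 and 24 of 78 UMIs. In T cells as a whole Ifit1 led, at 28.7% (25.4-32.3) and 31.2% (28.6-33.9), and Rsad2 gave 12.0% and 9.54%. Within T cells the lead of Ifit1 did not hold for CD4 T cells, where Ifit2 gave the largest share, at 29.2% (23.8-35.2) and 41.2% (36.2-46.4). In B cells Rsad2 gave 8.64% and 8%, and the lead was with Ifit2 for WT (28.1%, 24.2-32.2) and with Cmpk2 for Atg5 LEC-KO (33.1%, 28.3-38.1). WT LECs were led by Ifit1 at 37.4% (34.4-40.5), with Rsad2 at 8.02% (6.42-9.87). In Atg5 LEC-KO LECs Rsad2 was the largest share, at 26.6% (24.3-29.1), and Ifit1 gave 22.6% (20.4-24.98). The 2 cells with the highest sums held 82 and 53 of the 360 Rsad2 UMIs. They held 32 and 23 of the 306 Ifit1 UMIs, so the lead of Rsad2 over Ifit1 rested on these 2 cells. Ifit3b stayed below Ifit3 in each of these 4 classes and both libraries.

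**Figure D5:**
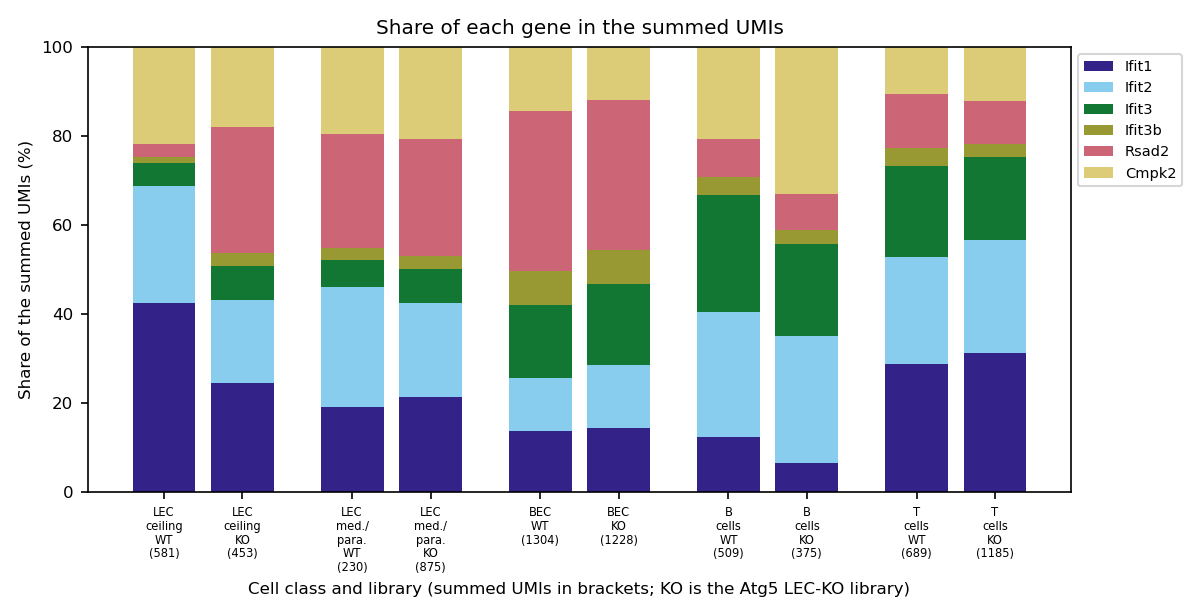
Share of each of the 6 genes in their summed UMIs (%), by cell class and library, with the summed UMIs in brackets. Rsad2 is wide in BECs (35.8% and 33.6%) and in Atg5 LEC-KO LECs and narrow in B cells, T cells and WT ceiling LECs. In the WT medullary or paracortical bar, 55 of 59 Rsad2 UMIs came from 1 cell.

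The genes were found together in more cells of the Atg5 LEC-KO LECs. At least 4 of the 6 were counted in 26 of 103 positive LECs there (25.2%) and in 17 of 253 WT LECs (6.72%), and all 6 in 8 and 2 cells. In BECs the share with at least 4 was 13.4% of 283 and 16.7% of 252 positive cells. In B cells it was 11.9% of 159 (WT) and 3.39% of 177 (Atg5 LEC-KO). These shares move with the number of UMIs per cell and carry no test.

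A small myeloid-like class, under 50 cells in WT and so given as counts, had the same shape. Its 42 WT cells held 28 UMIs, at most 5 in a cell, and its 58 Atg5 LEC-KO cells held 287 UMIs, of which 215 lay in 3 cells with 96, 78 and 41.

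The high LECs carried other interferon-stimulated genes too. Against the remaining LECs of the same library, 28 of 34 type I interferon effector genes were at least 2-fold higher in the 14 high Atg5 LEC-KO cells (median ratio 4.003) and 26 of 34 in the 4 high WT cells (median 3.88). Of all genes with at least 20 UMIs in these LECs, 6.48% of 8717 and 13.9% of 11275 were as far above the other LECs, and 21.8% and 38.9% as far below. Cxcl10, a chemokine that attracts CXCR3-bearing T and NK cells, stood at 4166 CPM in the high Atg5 LEC-KO LECs against 58.5 CPM in the others, and at 4037 against 104 CPM in WT LECs. It was counted in 11 of the 14 high Atg5 LEC-KO cells, and 2 of them held 193 and 124 of its 487 UMIs. Isg15, a ubiquitin-like modifier, was 8.94-fold and 14.3-fold higher, and Usp18, which removes ISG15 and damps the receptor, 11.1-fold and 8.24-fold. Gbp5, a guanylate-binding protein also induced by interferon gamma, was 11.6-fold and 6.01-fold higher. Of 13 immediate NF-kB and stress genes, 0 were 2-fold higher and 6 were at most 0.5 of the others' level in the Atg5 LEC-KO library, against 2 and 1 in the WT library. Niche differed as well: 12 of the 14 high Atg5 LEC-KO cells were placed in the medullary or paracortical class. That class made up 102 of the 219 LECs of this library, and the part of niche in these comparisons was not tested. The high WT cells were also deeper, with a median of 13698 UMIs against 8200, and the part of depth was not tested. These cells were chosen by counts of interferon genes in the same cells, so the comparison is a description of them.

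In high BECs Cxcl9 stood out. The 11 Atg5 LEC-KO BECs with at least 20 UMIs held Cxcl9, a T cell chemokine that depends mainly on interferon gamma, at 15169 CPM, against 1543 CPM in the other BECs, and 2106 UMIs of it in all. Those UMIs lay in 9 of the 11 cells, with 558 of them in 1 cell. In the 10 WT cells Cxcl9 stood at 711 against 286 CPM. High LECs held 3 and 1 UMIs of Cxcl9. All 19 genes of the interferon gamma list were at least 2-fold higher in the high Atg5 LEC-KO BECs (median 6.56), against 13 of 17 in the WT BECs (median 2.91). The list was raised in high LECs too. There 13 of 16 genes (median 4.46) were as far above the other LECs in the Atg5 LEC-KO library, against 6.48% of all genes. In the WT library 15 of 17 were (median 3.88), against 13.9%. Over all genes the shares were 6.55% higher and 29.4% lower of 9796 in the Atg5 LEC-KO BECs, and 10.9% higher and 35.4% lower of 10058 in the WT BECs. Depth moved with this: the high Atg5 LEC-KO BECs had a median of 14631 UMIs, against 4565 in the other BECs, and its part was not tested.

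Other genes of the pathway were followed in lists drawn up with earlier results known. In LECs, 13 of 36 type I interferon effectors were at least 2-fold higher in the Atg5 LEC-KO library while 0 were lower. Their median log2 ratio was 0.80, against 0.04 over all 11736 genes and 4.47% of them past 2-fold. Without 5 cells of each library chosen for the 6 genes, 7 of the 36 were past 2-fold. The most abundant effector, Ifitm3, an entry inhibitor of enveloped viruses, was level (1948 and 1867 CPM, 0.959). The largest ratios were those of Oas2, which senses double-stranded RNA (1.70 and 6.79 CPM, 3.997, 1.54-10.5), Sp100, a nuclear body protein (23.9 and 81.5 CPM, 3.402) and Oasl1 (10.7 and 30.2 CPM, 2.83). By niche, 5 of 34 effectors were past 2-fold in ceiling LECs, against 5.27% of all genes, and 16 of 34 in medullary or paracortical LECs, against 3.71%. Since the niche mix differed between the libraries, ratios over all LECs are given below with those within a niche where the gene reached 20 UMIs there. The 6 genes had a median log2 ratio of 2.52 over all LECs and 1.62 without those cells.

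The Ifi200 family consists of DNA-binding proteins encoded in a cluster of copies. Of 8 measured members, 7 were at least 2-fold higher in Atg5 LEC-KO LECs, against 4.47% of all genes, with a median log2 ratio of 3.03. Within the medullary or paracortical class 7 of 7 were past 2-fold, against 3.71% of all genes, with a median log2 ratio of 2.23. In ceiling LECs 3 members reached 20 UMIs, of which 2 were past 2-fold, against 5.27% of all genes, with a median of 1.01. Ifi211 went from 15 to 89 UMIs over all LECs (21.6-fold, 12.4-40.1) and from 8 to 82 UMIs in the medullary or paracortical class (8.47-fold). Ifi204 went from 45 to 151 UMIs (12.2-fold) and there from 34 to 139 UMIs (3.38-fold), and Ifi208 from 6 to 23 UMIs (13.9-fold) and there from 5 to 20 UMIs (3.31-fold). Mndal, the most abundant, went from 46.0 to 184 CPM over all LECs (4.01-fold), and was 2.08-fold higher in the ceiling and 2.33-fold in the medullary or paracortical class. The ratios over all LECs of these 4 genes were thus larger than those within a niche. The copies resemble each other, so counts of single members are uncertain.

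Of 8 receptor and JAK genes, 1 was past 2-fold over all LECs, Tyk2 (7.64 and 16.04 CPM, 2.0997-fold), against 4.47% of all genes, and Jak1, the most abundant, was level at 0.959. Of 13 nucleic acid sensing genes, the RNA sensors Ifih1 (75.6 and 173 CPM, 2.29-fold) and Dhx58 (20.4 and 49.4 CPM, 2.42-fold) were past 2-fold and 0 were lower, against 4.47% of all genes higher and 5.86% lower. Both are also counted among the type I effectors. Within niches Ifih1 stood at 1.75 in the ceiling and 2.92 in the medullary or paracortical class, and Dhx58 at 1.62 and 4.55. Of 6 feedback genes, Usp18 was 2.496-fold higher, with 2.42 in the ceiling and 1.996 in the medullary or paracortical class. Socs3, which damps cytokine receptors, stood at 0.353 over all LECs, but at 0.530 in the ceiling and 1.05 in the medullary or paracortical class.

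Of 21 interferon ligand genes looked for, 3 had a UMI in any cell of either library. Ifng had 50 UMIs in 27 WT cells and 189 UMIs in 56 Atg5 LEC-KO cells, most of them CD8 T cells, NK cells and regulatory T cells. The Atg5 LEC-KO library held more such cells, with 1623 T and 23 NK cells against 970 and 7. In T cells Ifng stood at 14.3 (WT) and 19.5 CPM (Atg5 LEC-KO), a ratio of 1.36 (0.959-1.97) whose interval held 1. Ifne and Ifnz had 1 UMI each, in the Atg5 LEC-KO library. The interferon alpha and beta genes looked for had 0 UMIs in both libraries.

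Of 18 interferon gamma genes measured over all LECs, 0 were 2-fold higher and 2, Cxcl9 and Socs1, were lower, against 4.47% and 5.86% of all genes, and their median log2 ratio was 0.30. By niche the count differed: 5 of 16 were past 2-fold in medullary or paracortical LECs, against 3.71% of all genes (Gbp3, Gbp4, Igtp, Iigp1 and Tgtp1, 2.01 to 2.34), and 1 of 17, Tgtp1 (2.56), in ceiling LECs, against 5.27%. None was 2-fold lower in either niche. Cxcl9 stood at 51.6 and 16.7 CPM over all LECs, but at 10.9 and 9.99 CPM in the ceiling (0.913) and at 23.4 and 24.1 CPM in the medullary or paracortical class (1.03). Socs1, another brake on cytokine receptors, stood at 0.404 over all LECs and at 0.883 in the ceiling. The most abundant, Iigp1, a GTPase against vacuolar pathogens, stood at 507 and 752 CPM (1.48-fold) over all LECs.

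In BECs, where the sum of the 6 genes was almost level, 8 of the 19 interferon gamma genes were at least 2-fold higher and 0 lower (median log2 0.83, against -0.01 over all genes), while 2 of 36 type I effectors were higher. Of all genes in BECs, 2.26% were higher and 3% lower. The mix of BEC classes differed, with capillary cells 331 of 641 in WT and 256 of 520 in Atg5 LEC-KO and tip cells 94 and 148. Within capillary BECs 4 of 17 interferon gamma genes were past 2-fold, against 3.22% of all genes. Cxcl9 in BECs went from 295 to 2228 CPM (7.56-fold, 7.05-8.12), and in capillary BECs from 412 to 1562 CPM (3.79-fold).

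The NF-kB and stress list was at least 2-fold lower in Atg5 LEC-KO LECs in 5 of 13 genes, against 5.86% of all genes (median log2 -0.92). Within niches 2 of 13 were lower in the ceiling, against 5.3%, and 1 of 13 in the medullary or paracortical class, against 4.99%. Fos, an immediate early factor, stood at 3530 and 1496 CPM over all LECs (0.424), at 0.516 in the ceiling and at 0.900 in the medullary or paracortical class.

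In B cells 0 of 36 type I effectors were 2-fold higher and 2 were lower (median log2 -0.19), against 1.65% and 2.25% of all genes. In T cells 0 were higher and 1 of 37 lower (median -0.06), against 1.78% and 1.71%. The B cell median had the same sign as that of the 6 genes (-0.88). Ifit1bl1 and Ifit1bl2, gene copies beside Ifit1, did not reach 20 UMIs in LECs or BECs, whereas Ifit1bl1 stood at 76.7 and 81.9 CPM in T cells and 19.1 and 15.3 CPM in B cells.

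Over 22 class-by-library sums with at least 50 cells, the genes whose log2(CPM + 1) followed the sum of the 6 most closely were Rtp4 (r = 0.871), Xaf1 (0.828), Isg15 (0.827), Ifi204 (0.827), Irf7 (0.820), Fcho2 (0.812), Irgm1 (0.811), Ifih1 (0.809), 4930599N23Rik (0.807) and Oasl2 (0.800), among 12066 genes with at least 100 UMIs. Of these 10, 8 are on the interferon lists, and Fcho2 and 4930599N23Rik are not. Among the 6, the closest pairs were Ifit3 with Ifit3b (r = 0.839), Rsad2 with Cmpk2 (0.816) and Ifit3 with Rsad2 (0.811), and the least close was Ifit1 with Cmpk2 (0.472). Points of the same library share depth and preparation, and the values are descriptions.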

How the data were processed

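The deposited tables list counts of molecules for each barcode and gene, not normalized. Per the file headers they come from the BD Rhapsody WTA Analysis Pipeline 1.11 with an mm10 reference, Enhanced beads and no sample tags. The submitters' processing notes also name mm10. Counts after the pipeline's correction of UMI errors were used. Since all barcodes are deposited, cells were called here at the knee of the UMI curve between ranks 500 and 60000, which gave 4082 WT and 4387 Atg5 LEC-KO barcodes with at least 1235 and 1223 UMIs. Cells with under 200 genes or over 25% mitochondrial UMIs were removed. Scrublet (expected rate 0.06) called 29 (0.746%) and 30 (0.717%) doublets, which were removed too; the labels do not say that doublets had been removed before.

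Clusters were made with scanpy 1.11.5 from 2000 variable genes and 30 principal components, using 15 nearest neighbours and Leiden at resolution 1, without batch integration and with the 6 genes and the interferon lists kept out of the variable genes. The score thresholds behind the class names were chosen with the clusters in view. UMIs of a class were summed and divided by its total without mitochondrial genes (CPM). CPM carry exact Poisson, shares exact Clopper-Pearson and ratios exact conditional binomial 95% intervals, tested on simulated data. They cover counting error only, treat each UMI as independent and leave out variation between cells, animals and preparations. The floor for a count of 0 is 3 UMIs. Sex was called from Xist and Y-linked UMIs, and cells with both or neither had no call.

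The members and lists were chosen with earlier results of these data known. Named were the 6 genes, at most 4 genes of each pathway list (the most abundant and those with the largest ratio in LECs) and the 10 genes most like the sum; Atg5, Ackr4, Lyve1, genes of the high cells, Cxcl9, Fos, Socs1, Socs3 and others named beyond these were chosen after their values were seen. Promoters are from RefSeq (GRCm38.p6) and gene positions from GENCODE M21. One list of transcription factors is not reported here.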

Additional observations from a re-analysis of the deposited data

How the results depend on the processing

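No paired analysis was possible because each genotype had 1 library, and leaving out a replicate would leave no group. Cell removals by top UMIs (1 and 10 cells), removal of shared barcodes and the cells of unassigned sex were chosen after seeing the data. The 6 library ratios stayed within their counting intervals with molecules before error correction, doublets kept, at least 2000 UMIs per cell, mitochondrial genes in the total, resolution 2, Ifit3 and Ifit3b left out, and shared barcodes left out.

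The ceiling ratio was 2.66 without 1 cell of each library, 0.987 (0.753-1.28) without 5 and 0.770 (0.550-1.05) without 10. The last 2 intervals held 1. Removing the cells that carry the sum is what the alternative does. Equal numbers are also a larger share of the Atg5 LEC-KO than of the WT cells, among ceiling LECs (104 and 495) and all LECs (219 and 728). Without 1, 5 and 10 cells the medullary or paracortical ratio was 8.17, 7.64 and 7.37, and the LEC ratio was 3.63 and 2.60 without 5 and 10. The Ifit3b ratio in LECs was 0.790 without 10. For the alternatives below the cause was not tested. With at most 10% mitochondrial UMIs the ratios were 5.97 in LECs, 7.69 in ceiling LECs, 0.436 in B cells and 1.14 in T cells. With interferon genes in the clustering, ceiling and medullary or paracortical LECs gave 1.09 and 4.19. In male cells LECs, ceiling LECs and B cells gave 5.34, 1.49 and 0.255. In female cells LECs, ceiling, medullary or paracortical LECs, BECs, B cells and T cells gave 2.67, 2.36, 6.99, 1.21, 0.438 and 0.683. In cells of unassigned sex the same 6 gave 17.0, 28.8, 12.6, 0.932, 0.969 and 0.876, and the Rsad2 ratio in B cells was 1.28. The first 2 of these values include the Atg5 LEC-KO ceiling cell with 228 UMIs. The mean of per-cell CPM gave 6.06, 3.93 and 6.49 in LECs, ceiling and medullary or paracortical LECs, and the equal-weight mean of the log2 ratios of both niches with 50 cells in each library gave 3.75 in LECs.

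Shares of positive cells thinned to 1000 UMIs were 9.07% in WT LECs, 20.3% and 23.3% in WT and Atg5 LEC-KO BECs, 6.86% and 5.29% in B cells and 12.7% and 12.3% in T cells. Unthinned they were 34.8% and 47.0% in LECs, 44.1% and 48.5% in BECs, 11.3% in Atg5 LEC-KO B cells and 27.0% and 28.1% in T cells; depth sets these levels by construction.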
